A study of Arabidopsis thaliana with 11 samples.

Results

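Transcript levels of 10 regulators of growth in darkness and light were followed in etiolated hypocotyls of Arabidopsis thaliana. They are the phytochrome-interacting factor genes PIF1 (AT2G20180), PIF3 (AT1G09530), PIF4 (AT2G43010), PIF5 (AT3G59060), PIF7 (AT5G61270) and PIF8 (AT4G00050), the related genes PIL1 (AT2G46970) and HFR1 (AT1G02340), and the bZIP genes HY5 (AT5G11260) and HYH (AT3G17609). They were chosen by locus, and all 16 of their features on the array were used, out of 37118 features of 32627 loci. A feature is a set of 3 or 4 probes that the authors summarised to 1 intensity. PIF4, PIF5 and PIF7 have 2 features each, HYH has 4, and the other 6 genes have 1.

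Seeds of the Columbia ecotype were kept cold (4 °C) in darkness for 3 days and then given 6 h of white light at 20 °C, in both genotypes. Seedlings grew in the dark for 4 days, and hypocotyls were taken at 96 h. The line labelled as a loss-of-function mutant, atpme3-1, affects PME3, a gene for a pectin methylesterase that removes methyl groups from cell wall pectin, and has 5 arrays, numbered 1, 2, 3, 5 and 6. Wild type of the same ecotype has 6 arrays, numbered 1 to 6. Each replicate was collected on its own and pooled about 300 hypocotyls, and the mutant is a single line.

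PIFs are basic helix-loop-helix transcription factors that accumulate in the dark, bind G-box motifs and drive elongation of the hypocotyl; phytochromes activated by light bind them and lead to their breakdown. PIL1 and HFR1 are relatives of the PIFs whose transcripts are raised by PIFs in shade, and HFR1 restrains PIFs by pairing with them. HY5 acts in the opposite sense to the PIFs: it promotes the light programme, including flavonoid synthesis, and in the dark its protein is degraded through the ubiquitin ligase COP1. HYH is the closest relative of HY5. The arrays report transcripts only, and not the protein levels at which much of this regulation takes place.

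The PME3 feature was higher, not lower, on the mutant arrays, at 14.41 ± 0.02 (log2 intensity, SD, n = 5) against 13.81 ± 0.06 on wild-type arrays (SD, n = 6), with a log2 fold change of 0.61 ± 0.040 (SE) and an adjusted p of 4.91e-07. That is the opposite of what a loss of the transcript would give, but the probes' place relative to the insertion is not given, so the feature may check nothing. The group is named labelled mutant throughout, and each direction depends on that label. Median intensity was 3776 to 3909 on the 11 arrays. Seed maturation markers were higher on labelled mutant arrays for 6 of 7 genes (5 with arrays 3 numbers apart averaged), with a list mean of 13.63 to 14.00 against 11.71 to 12.48 in wild type (log2). Root hair markers were lower for 6 of 6, also on averaging, with a list mean of 9.89 to 11.82 against 12.81 to 13.55. Over all features 18.8% were higher and 13.6% lower (10.6% and 8.72% on averaging). Of 6 green tissue markers 0 passed the limma test (0 higher and 2 lower at an unadjusted p under 0.05), with list means of 13.99 to 14.13 against 13.97 to 14.38. Of 3 transcripts known to be high in dark-grown seedlings, 2 did not pass, and PHYA was slightly lower (log2 fold change -0.17 ± 0.056, adjusted p = 0.0395; 0.0625 with arrays 3 numbers apart averaged). The part of these tissues in the results below was not tested, and in pooled hypocotyls fewer cells of a type and less RNA per cell cannot be told apart.

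Wild-type arrays whose numbers lie 3 apart resembled each other. After the group mean was subtracted, array 1 correlated with array 4 at 0.18 over all features, array 2 with 5 at 0.58 and array 3 with 6 at 0.69, whereas the other wild-type combinations gave -0.81 to 0.04. Among labelled mutant arrays, 2 and 5 gave 0.07 and 3 and 6 gave 0.03. Arrays 1 and 3 gave 0.15, and the other combinations of that group lay lower, at -0.63 to -0.20. Some members showed part of the wild-type order there. The first HYH feature read 13.41 and 13.31 on labelled mutant arrays 2 and 5 and 12.84 and 12.83 on 3 and 6. Labelled mutant array 1 lay between, at 13.19, whereas wild-type arrays 1 and 4 had the lowest mean of the wild-type pairs (12.11). The labels describe all arrays as separate replicates. The members carried this structure strongly. The share of wild-type variance lying between the number pairs 1 and 4, 2 and 5, and 3 and 6 was above the median of all features (62.3%) in 14 of 16 member features, with a range of 34.6% to 99.7%. HFR1 (46.0%) and HY5 (34.6%) were the 2 below it. The fit was therefore repeated with such arrays averaged in both groups, which leaves 3 values a group. As the labelled mutant has no array 4, 1 of its 3 values is array 1 alone. With fewer values a call can also end for lack of precision. Calls that ended in this averaged fit are given beside their results. The 12 member features that had not passed did not pass in it either (adjusted p 0.112 to 0.915). The other genes of the pathway lists named below as changed kept their calls (adjusted p 0.00145 to 0.0486). A second BZR1 feature, which does not stand for its gene in the lists, also kept its call (adjusted p = 7.66e-05). Fits without a wild-type number pair, given below, were chosen after seeing the data. They treat the remaining wild-type arrays as separate replicates, and leaving out the highest or lowest pair shifts the difference by itself.

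**Figure D1:**
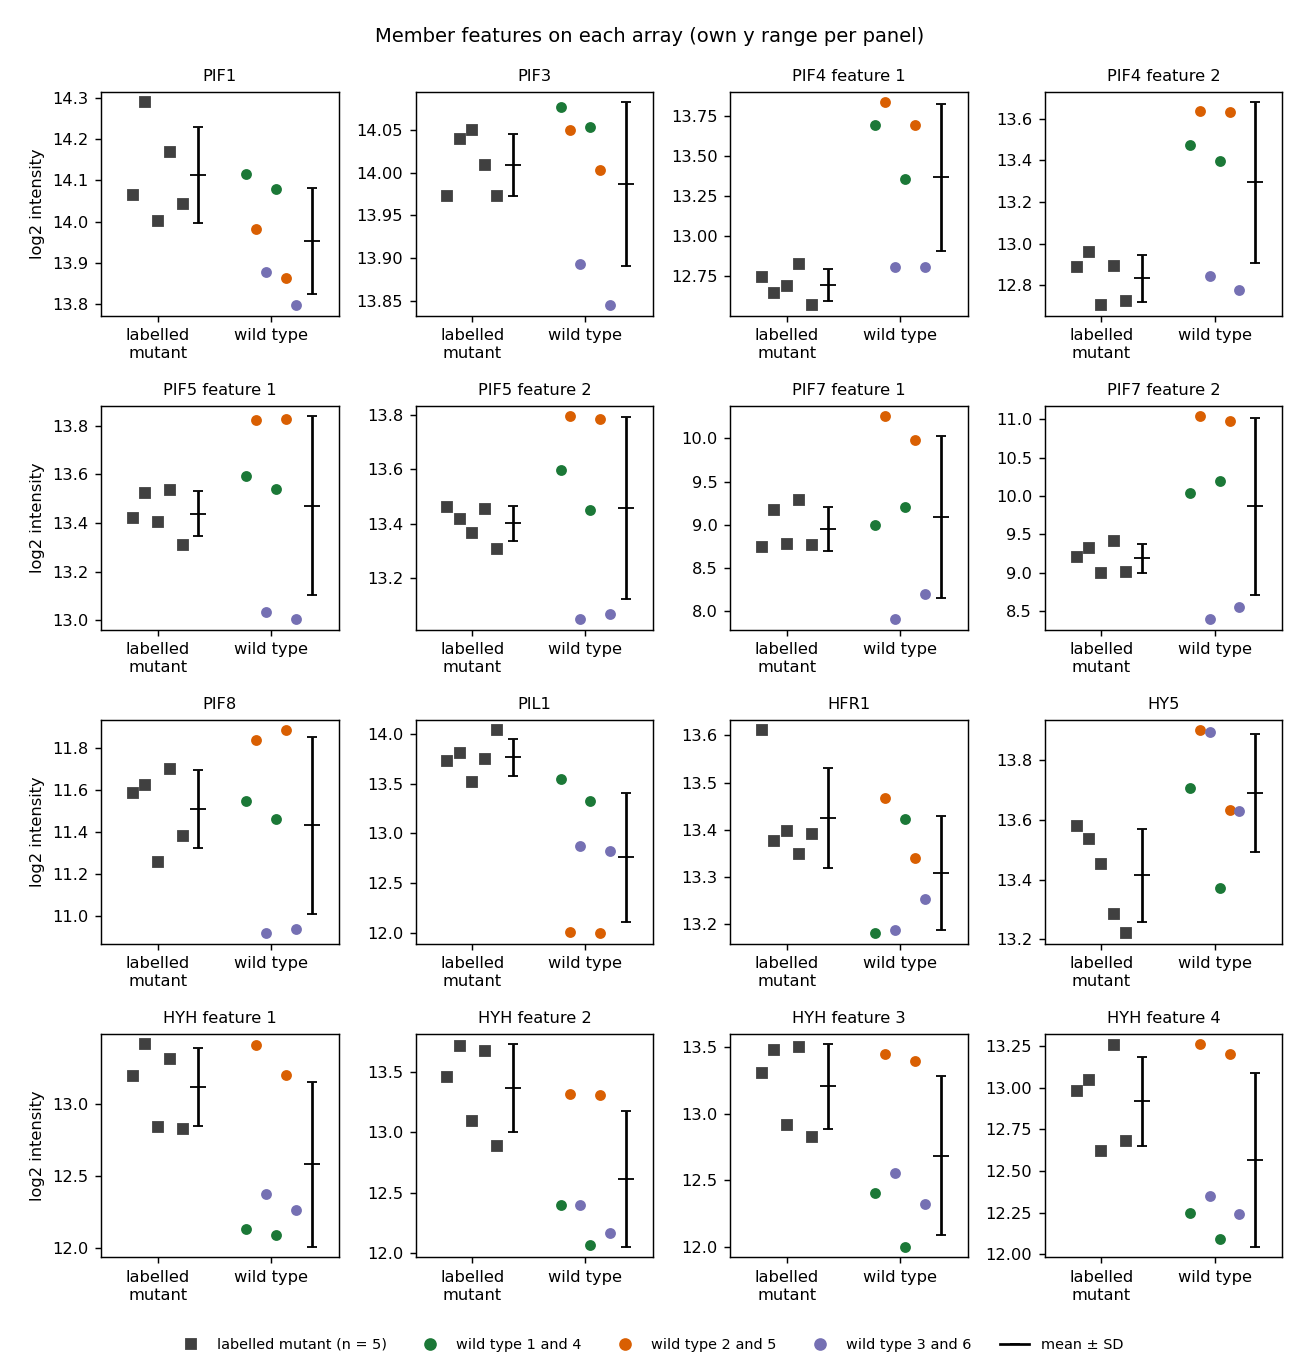
Log2 intensity (y axis, own range per panel) of the 16 member features on the 5 labelled mutant arrays (grey squares, left in each panel) and the 6 wild-type arrays (circles, right), with mean ± SD as bars and wild-type arrays coloured by number pair. The wild-type pairs lie apart for PIF5, PIF7, PIF8 and PIL1. For PIF4 wild-type arrays 3 and 6 lie below the rest, and for HYH wild-type arrays 2 and 5 lie above the rest. The groups overlap in each panel.

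Between labelled mutant and wild type, PIF4 fell, PIL1 rose, and 1 of 4 HYH features rose, while PIF1, PIF3, PIF5, PIF7, PIF8, HFR1 and HY5 did not pass the test. In all, 2 member features were higher and 2 lower at an adjusted p under 0.05, 4 of 16. Of all features, 18.8% were called higher and 13.6% lower, 32.4% together, so calls were not more frequent among the members than on the whole array. The median log2 fold change was 0.05 for the member features and 0.04 for all features. In 0 of 16 member features were the groups free of overlap, against 19.6% of all features (10.3% wholly higher, 9.35% wholly lower). With arrays 3 numbers apart averaged, 0 of 16 passed the limma test (1 higher and 2 lower at an unadjusted p under 0.05), against 19.3% of all features (10.6% higher, 8.72% lower).

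**Figure D2:**
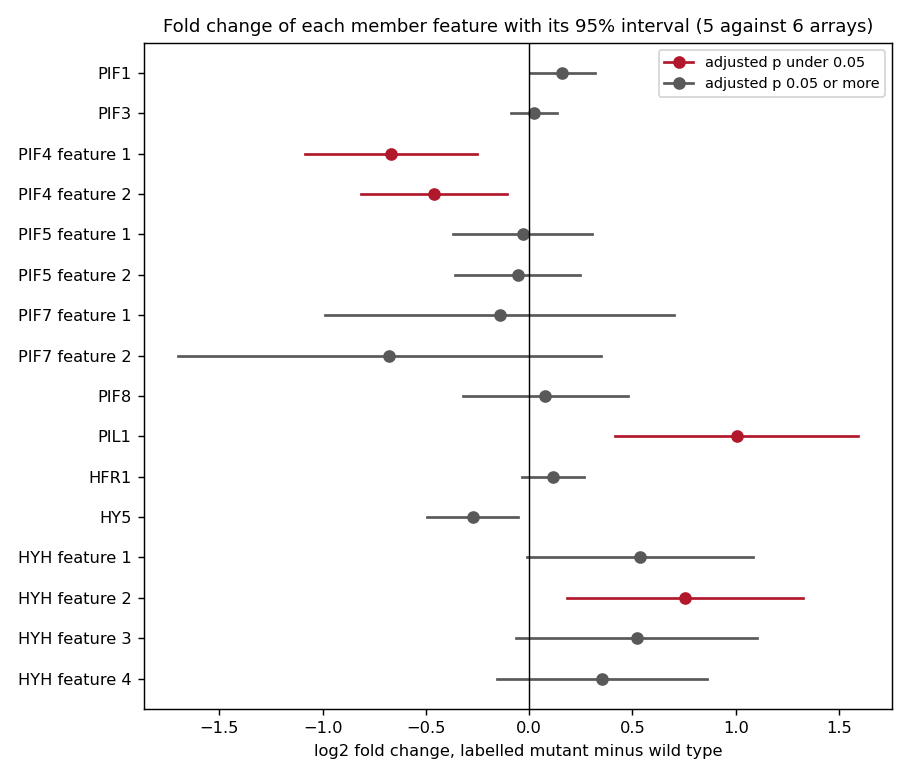
Log2 fold change of each member feature, labelled mutant minus wild type (x axis), with its 95% confidence interval from the limma fit of 5 against 6 arrays; red marks an adjusted p under 0.05. PIL1 and the second HYH feature lie to the right, both PIF4 features to the left, and the intervals of PIF7 are the widest.

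PIF4, which drives elongation in warmth and shade, was the PIF gene that fell. Its first feature (AT2G43010_1) read 12.75, 12.65, 12.69, 12.83 and 12.57 on labelled mutant arrays 1, 2, 3, 5 and 6, against 13.69 and 13.36 on wild-type arrays 1 and 4, 13.84 and 13.70 on 2 and 5, and 12.81 on each of 3 and 6 (log2 intensity). The labelled mutant arrays thus lay close together, at the level of wild-type arrays 3 and 6 and below the other 4. The means were 12.70 ± 0.10 (SD, n = 5) and 13.37 ± 0.46 (SD, n = 6), a log2 fold change of -0.67 ± 0.19 (SE) with an adjusted p of 0.0193. This call held in each of the 11 fits without 1 array (adjusted p 0.00598 to 0.0424). It ended with arrays 3 numbers apart averaged (-0.66, adjusted p = 0.0983), without wild-type arrays 1 and 4 (-0.59, adjusted p = 0.0746) and without wild-type arrays 2 and 5 (-0.47, adjusted p = 0.0717). With arrays 3 numbers apart as a random block, a choice made after seeing the data, it held (-0.67, adjusted p = 0.0261). Without arrays 3 and 6, the wild-type pair nearest the labelled mutant level, the change was -0.95 with an adjusted p of 7.26e-05.

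The second PIF4 feature (AT2G43010_2) averaged 12.83 ± 0.11 on labelled mutant arrays (SD, n = 5) and 13.29 ± 0.39 on wild-type arrays (SD, n = 6), a log2 fold change of -0.46 ± 0.16 (SE) with an adjusted p of 0.0482. Only 2 of the 11 fits without 1 array kept that call. With arrays 3 numbers apart averaged it ended (adjusted p = 0.174). The labelled mutant mean lay 0.02 above that of wild-type arrays 3 and 6, and 0.80 below that of arrays 2 and 5 (log2). The 2 PIF4 features changed unequally, by 0.21 on the log2 scale (exact two-sided permutation test over arrays, p = 0.0152, adjusted p = 0.0273 over the 9 feature pairs compared in these genes). That test treats each array as independent, which the number pairs put in doubt.

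PIF5, which overlaps with PIF4 in function, did not pass the test on either feature. The first feature (AT3G59060_1) read 13.42, 13.53, 13.40, 13.53 and 13.31 on labelled mutant arrays, against 13.59 and 13.54 on wild-type arrays 1 and 4, 13.82 and 13.83 on 2 and 5, and 13.04 and 13.00 on 3 and 6. All 5 labelled mutant values lay between wild-type pairs, below 1 and 4 and above 3 and 6. The fold change was 0.978-fold, with a 95% interval of 0.775-fold to 1.23-fold (adjusted p = 0.891), and the second feature gave 0.962-fold (0.779-fold to 1.19-fold, adjusted p = 0.785). Whether PIF4 and PIF5 differ in their response was not tested. Without wild-type arrays 3 and 6, both PIF5 features were lower (-0.26, adjusted p = 0.0305, and -0.26, adjusted p = 0.0301).

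PIF7, which promotes elongation in shade and is stable in light, varied most of the 10 genes among wild-type arrays. Its second feature (AT5G61270_2, 3 probes) read 9.20, 9.33, 8.99, 9.42 and 9.01 on labelled mutant arrays, against 10.03 and 10.20 on wild-type arrays 1 and 4, 11.04 and 10.98 on 2 and 5, and 8.39 and 8.55 on 3 and 6. Within wild type this is a range of 6.29-fold, against 1.34-fold on labelled mutant arrays. Arrays 3 and 6 of both groups read below 9.18, the bound of the dimmest 25% of features. The group difference of -0.68 ± 0.47 (log2, SE) did not pass (adjusted p = 0.285), and its interval ran from 0.308-fold to 1.27-fold. Without wild-type arrays 3 and 6 it was -1.37 with an adjusted p of 0.00119, and without arrays 2 and 5 it was -0.10 with an adjusted p of 0.857. The first PIF7 feature averaged 8.95 ± 0.26 (SD, n = 5) and 9.09 ± 0.94 (SD, n = 6), which is within the dimmest 25% of features. Its change of -0.14 ± 0.39 did not pass (adjusted p = 0.805). It differed from that of the second feature by 0.53 (exact permutation p = 0.0108, adjusted p = 0.0273 over 9 pairs). The permutation again treats each array as independent.

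PIF8, named UNE10 in the gene table, read 11.59, 11.63, 11.25, 11.70 and 11.38 on labelled mutant arrays, against 11.55 and 11.46 on wild-type arrays 1 and 4, 11.84 and 11.88 on 2 and 5, and 10.92 and 10.94 on 3 and 6. Its change of 0.08 ± 0.18 did not pass (adjusted p = 0.770; 0.799-fold to 1.40-fold). PIF4, PIF5, PIF7 and PIF8 therefore shared 1 order in wild type, with arrays 2 and 5 highest, 1 and 4 between, and 3 and 6 lowest. On labelled mutant arrays PIF5 and PIF8 sat near the middle of that span, PIF7 between its middle and its low end, and PIF4 at the low end. The correlation of array residuals from the group mean was 0.96 to 0.99 among these 4 genes over 11 arrays (feature of highest mean for each), which share the number pairs described above.

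PIF3 and PIF1, both known to hold back greening in the dark, were among the steadiest members. PIF3 read 13.97, 14.04, 14.05, 14.01 and 13.97 on labelled mutant arrays, and ranged from 13.84 through a median of 14.03 to 14.08 in wild type. Its fold change was 1.02-fold with an interval of 0.940-fold to 1.10-fold (adjusted p = 0.767). PIF1, also known for blocking seed germination in the dark, read 14.06, 14.29, 14.00, 14.17 and 14.04, against 13.80, 13.93 and 14.12 in wild type (lowest, median, highest). All 5 labelled mutant values lay above the wild-type median and 2 above the highest wild-type array. The change of 0.16 ± 0.072 did not pass (adjusted p = 0.108; 95% interval 0.0023 to 0.32 in log2). Without wild-type arrays 1 and 4 it was 0.23 and passed (adjusted p = 0.0342).

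PIL1, a transcript that rises within a short time of shade, had the largest fold change among the 16 features. It read 13.73, 13.80, 13.52, 13.75 and 14.04 on labelled mutant arrays, against 13.54 and 13.32 on wild-type arrays 1 and 4, 12.01 and 12.00 on 2 and 5, and 12.87 and 12.82 on 3 and 6. Of the 5 labelled mutant arrays 4 lay above all wild-type arrays, and array 3 lay just under wild-type array 1. The means were 13.77 ± 0.19 (SD, n = 5) and 12.76 ± 0.65 (SD, n = 6), a log2 fold change of 1.01 ± 0.27 (SE), or 2.01-fold, with an adjusted p of 0.0149. All 11 fits without 1 array kept the call (adjusted p 0.00542 to 0.0330). It ended with arrays 3 numbers apart averaged (1.00, adjusted p = 0.0857). With such arrays as a random block, a choice made after seeing the data, it held (1.00, adjusted p = 0.0195). Without wild-type arrays 2 and 5, where PIL1 was lowest, the change was 0.63 with an adjusted p of 0.0171.

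The order of the wild-type pairs for PIL1 was not that of PIF4, PIF5, PIF7 and PIF8: arrays 2 and 5 were highest for these PIFs and lowest for PIL1. Against wild-type arrays 1 and 4 the labelled mutant mean of PIL1 was higher by 0.33, against 3 and 6 by 0.92 and against 2 and 5 by 1.77 (log2).

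HFR1 did not pass the test. It read 13.61, 13.38, 13.40, 13.35 and 13.39 on labelled mutant arrays, against 13.18, 13.30 and 13.47 in wild type (lowest, median, highest). The change was 0.12 ± 0.069 (log2, SE; adjusted p = 0.213), with an interval of 0.977-fold to 1.20-fold. Labelled mutant array 1 stood above the other 4.

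**Figure D3:**
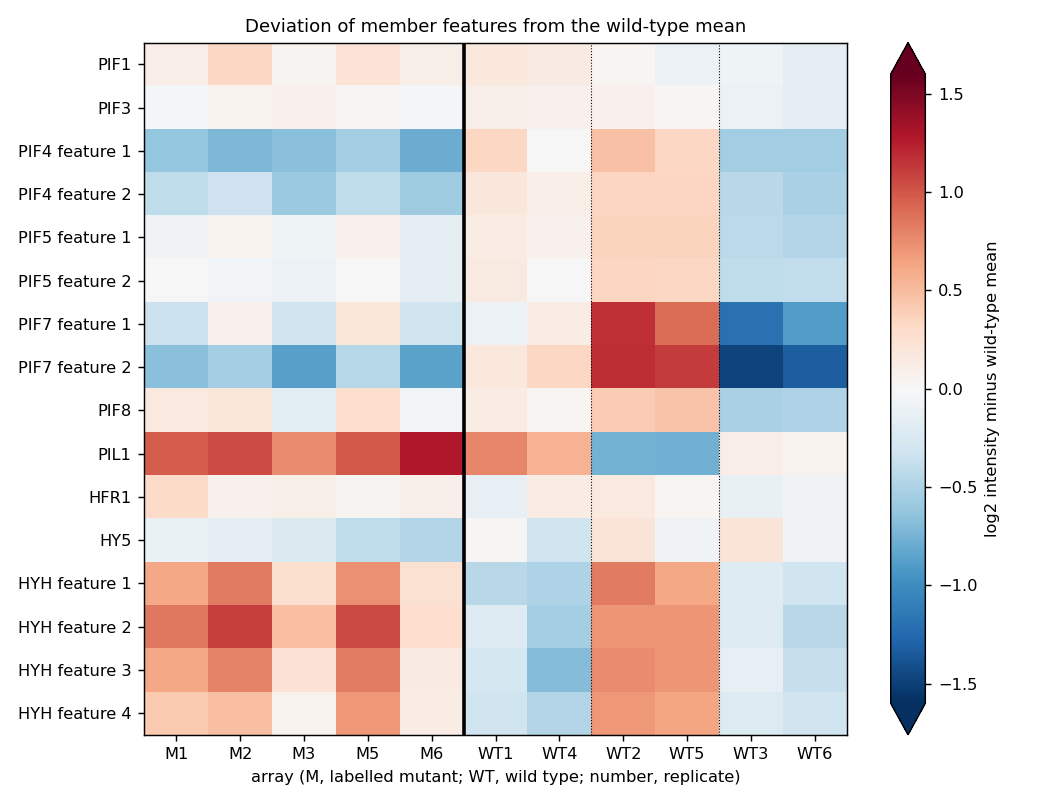
Log2 intensity of each member feature (rows) minus its wild-type mean on each array (columns; M, labelled mutant, left of the thick line; WT, wild type, in number pairs), red above and blue below. Wild-type arrays 2 and 5 are red for PIF4, PIF5, PIF7, PIF8 and HYH and blue for PIL1, and the labelled mutant columns are blue for PIF4 and red for PIL1 and HYH.

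HY5 was low on most labelled mutant arrays, but the difference did not pass. It read 13.58, 13.54, 13.45, 13.28 and 13.22 there, against 13.71 and 13.37 on wild-type arrays 1 and 4, 13.90 and 13.63 on 2 and 5, and 13.89 and 13.63 on 3 and 6. All 5 labelled mutant values lay below the wild-type median, and 2 below the lowest wild-type array. The means were 13.41 ± 0.16 (SD, n = 5) and 13.69 ± 0.20 (SD, n = 6), a log2 fold change of -0.27 ± 0.10 (SE), or 0.827-fold, with an adjusted p of 0.0568. The call sat at the threshold. The adjusted p was 0.0459 with 75th percentile centring and 0.0687 with median centring, 0.112 with arrays 3 numbers apart averaged, 0.0160 without wild-type array 4 and 0.0272 without wild-type arrays 1 and 4.

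HYH was higher on labelled mutant arrays in 1 of its 4 features. That feature, the second (AT3G17609_2) read 13.46, 13.71, 13.09, 13.67 and 12.88 on labelled mutant arrays, against 12.40 and 12.06 on wild-type arrays 1 and 4, 13.32 and 13.31 on 2 and 5, and 12.40 and 12.17 on 3 and 6. The means were 13.36 ± 0.36 (SD, n = 5) and 12.61 ± 0.56 (SD, n = 6), a log2 fold change of 0.75 ± 0.26 (SE), or 1.69-fold, with an adjusted p of 0.0454. Only 3 of the 11 fits without 1 array kept the call, and with arrays 3 numbers apart averaged it ended (0.77, adjusted p = 0.148). It also ended without wild-type arrays 1 and 4 (0.56, adjusted p = 0.167) and without 3 and 6 (0.59, adjusted p = 0.141). The labelled mutant mean lay 1.13 above that of wild-type arrays 1 and 4 and 1.08 above that of 3 and 6, but 0.05 above that of 2 and 5.

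The other HYH features changed by 0.54 ± 0.25, 0.52 ± 0.27 and 0.35 ± 0.23 (log2, SE; features 1, 3 and 4; adjusted p = 0.120, 0.154 and 0.261). All 4 features put wild-type arrays 2 and 5 above the other 4 wild-type arrays. Without arrays 2 and 5 all 4 passed, at 0.90, 1.11, 0.89 and 0.69 for features 1 to 4 (adjusted p 0.000896 to 0.00385). Leaving out the highest wild-type arrays, a choice made after seeing the data, raises these changes by itself. The second feature rose more than feature 4 by 0.40 (exact two-sided permutation p = 0.00216, the smallest possible over 462 splits, adjusted p = 0.0195 over 9 pairs). It rose more than feature 3 by 0.23 and than feature 1 by 0.22 (adjusted p = 0.0273 and 0.0390). The changes of features 1 and 3 also exceeded that of feature 4, by 0.18 and 0.17 (adjusted p = 0.0273 and 0.0390). Between features 1 and 3 the difference of 0.02 did not pass (adjusted p = 0.807). These permutations treat each array as independent. With 3 averaged values a group such a test could not go below 0.1, so it was not made. Which HYH transcripts the features read was not stated.

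For each member, the genes with the most similar residuals over the 11 arrays were listed, among features above the dimmest 25%. For PIF5 these were ELI3-1 (r = 0.996) and BEH1 (0.991), for PIF4 AT3G16670 (0.991) and CYP81H1 (0.989), for PIF7 AT2G37030 (0.988) and XTH6 (0.988), and for PIF8 AT3G44970 (0.991) and LHCA1 (0.987). For PIL1 they were TPR10 (0.970) and IAA29 (0.969), an auxin-response repressor gene known as a PIF target. For HYH they were TRXF1 (0.989) and AT1G75460 (0.986). PIF3 lay nearest to AT2G27140 (0.977) and AT4G30630 (0.950), PIF1 to AT5G49170 (0.966) and AT2G22200 (0.955), HY5 to AT2G14660 (0.949) and GRP4 (0.945), and HFR1 to AT3G61960 (0.892) and AT2G41150 (0.888). These are the highest values out of all features compared, over arrays that share the number pairs, and are given as descriptions.

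Genes around the members were described by 7 lists. Beside their counts stand the shares of all features, 18.8% higher and 13.6% lower. With arrays 3 numbers apart averaged these shares were 10.6% and 8.72%. Of 15 related bHLH and HLH genes 5 rose and 3 fell, with a median log2 fold change of 0.06 (3 and 2 with arrays 3 numbers apart averaged). PIL2, a close relative of PIL1, rose by 0.39 ± 0.065 (adjusted p = 0.00102). KDR, an HLH gene whose product frees growth-promoting bHLH factors from inhibitors, rose by 0.48 ± 0.11 (adjusted p = 0.00792). HEC3, a bHLH gene known from the gynoecium, averaged 8.81 ± 0.35 on labelled mutant arrays (SD, n = 5) and 10.90 ± 0.12 on wild-type arrays (SD, n = 6), a change of -2.09 ± 0.14 (adjusted p = 5.74e-07), and BS1 changed by -1.73 ± 0.39 (adjusted p = 0.00585). Their labelled mutant means lie below 9.18, the bound of the dimmest 25% of features.

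Of 13 genes known to be activated by PIFs 5 rose and 2 fell, the median being 0.11. The counts became 1 and 1 with arrays 3 numbers apart averaged, and 1 to 6 rose without 1 array in turn. The homeobox genes HAT2 (0.33 ± 0.071, adjusted p = 0.00482) and HAT3 (0.39 ± 0.13, adjusted p = 0.0320) rose, the call of HAT3 ending with arrays 3 numbers apart averaged (adjusted p = 0.114). FHL, which helps to bring phytochrome A into the nucleus, averaged 11.61 ± 0.26 on labelled mutant arrays (SD, n = 5) and 12.51 ± 0.20 on wild-type arrays (SD, n = 6), a change of -0.89 ± 0.13 (adjusted p = 0.000280), and the auxin repressor gene IAA19 changed by -0.22 ± 0.062 (adjusted p = 0.0177; 0.0817 with arrays 3 numbers apart averaged). Chosen after its values were seen, the shade marker HB-2 (ATHB2) rose by 1.05 ± 0.35 (adjusted p = 0.0371), a call that ended with arrays 3 numbers apart averaged (adjusted p = 0.140). Its labelled mutant mean of 13.115 lay just under that of wild-type arrays 1 and 4 (13.143). It lay above those of 2 and 5 (11.555) and 3 and 6 (11.487). The mean of this list was 13.09 to 13.17 on labelled mutant arrays, against 13.24 on wild-type arrays 1 and 4, 12.79 on 2 and 5, and 12.88 on 3 and 6 (pair means, log2).

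Of 12 genes known to be activated by HY5 5 rose and 0 fell, the median being 0.35 (2 and 0 with arrays 3 numbers apart averaged, 4 to 7 higher without 1 array in turn). The flavonol synthase gene FLS1 averaged 12.61 ± 0.22 on labelled mutant arrays (SD, n = 5) and 11.04 ± 0.50 on wild-type arrays (SD, n = 6), a rise of 1.57 ± 0.22 (adjusted p = 0.000242). The chalcone synthase gene TT4 rose by 0.57 ± 0.096 (adjusted p = 0.000954). The list mean was 12.78 to 13.00 on labelled mutant arrays, against 12.12 on wild-type arrays 1 and 4, 12.86 on 2 and 5, and 12.43 on 3 and 6.

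Of 13 B-box genes, whose zinc-finger products work with or against HY5, 2 rose and 5 fell, the median being -0.37 (1 and 2 with arrays 3 numbers apart averaged). BBX21, a positive partner of HY5, rose by 0.27 ± 0.050 (adjusted p = 0.00191), as did bbx23 (0.80 ± 0.25, adjusted p = 0.0285; 0.133 with arrays 3 numbers apart averaged). LZF1 (BBX22), also a positive factor of the light programme, changed by -0.59 ± 0.073 (adjusted p = 9.92e-05) and AT2G47890 by -0.55 ± 0.083 (adjusted p = 0.000471). Chosen after their values were seen, BBX31 (-2.34 ± 0.51, adjusted p = 0.00522) and BBX32 (-1.50 ± 0.42, adjusted p = 0.0185) also fell. The labelled mutant mean of BBX31, 8.57, lies below the dim bound of 9.18. Both calls ended with arrays 3 numbers apart averaged (adjusted p = 0.0528 and 0.0949). The list mean was 12.22 to 12.51 on labelled mutant arrays, against 12.65 on wild-type arrays 1 and 4, 13.25 on 2 and 5, and 12.60 on 3 and 6.

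**Figure D4:**
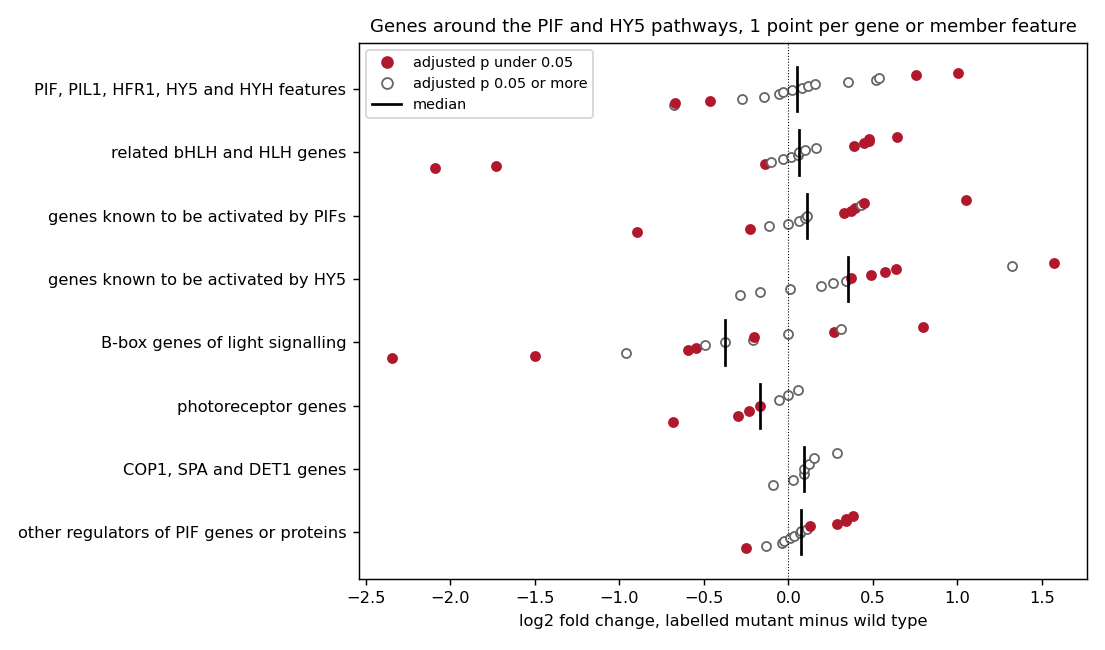
Log2 fold change, labelled mutant minus wild type (x axis), of the 16 member features (top row) and of each gene of 7 lists around them; filled red points have an adjusted p under 0.05 and black bars are medians. The medians of the B-box and photoreceptor lists lie below 0, and that of the genes known to be activated by HY5 lies at 0.35.

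Of 7 photoreceptor genes 0 rose and 4 fell, the median being -0.17 (0 and 3 with arrays 3 numbers apart averaged). PHYD averaged 12.42 ± 0.05 on labelled mutant arrays (SD, n = 5) and 13.10 ± 0.09 on wild-type arrays (SD, n = 6), a change of -0.68 ± 0.051 (adjusted p = 1.53e-06), and PHYE changed by -0.30 ± 0.045 (adjusted p = 0.000495). Of 7 COP1, SPA and DET1 genes, whose products degrade HY5 or keep the dark programme, 0 passed the limma test (1 higher and 0 lower at an unadjusted p under 0.05). The lowest p was that of SPA2 (0.09 ± 0.037, adjusted p = 0.0726), and 1 passed in some of the fits without 1 array.

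Of 14 other regulators of PIF genes or proteins 5 rose and 1 fell, the median being 0.07 (2 and 0 with arrays 3 numbers apart averaged). GAI, a DELLA protein gene whose product blocks PIFs from DNA, rose by 0.34 ± 0.060 (adjusted p = 0.00140). PCL1 (LUX), a member of the evening complex that represses PIF4 and PIF5, changed by -0.25 ± 0.076 (adjusted p = 0.0267; 0.111 with arrays 3 numbers apart averaged). For the brassinosteroid factor BZR1 the brighter feature rose by 0.29 ± 0.059 (adjusted p = 0.00369), while the other averaged 7.34 ± 0.10 on labelled mutant arrays (SD, n = 5) and 9.13 ± 0.23 on wild-type arrays (SD, n = 6), a change of -1.79 ± 0.10 (adjusted p = 1.53e-07). Both means of that feature lie below 9.18, the bound of the dimmest 25% of features, and the features disagree in sign. Chosen after their values were seen, the DELLA genes RGA1 (0.13), RGL1 (0.38) and RGL2 (0.34) also rose, and RGL3 (-0.13, adjusted p = 0.372) did not pass. Those 3 calls ended with arrays 3 numbers apart averaged (adjusted p 0.0516 to 0.145).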

How the data were processed

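RNA of 11 hypocotyl samples was hybridised to 1-colour NimbleGen arrays. The deposited values are intensities on a linear scale, 1 per feature, made by the authors with RMA, which corrects background, normalizes arrays and summarises probes, per the submitters' processing notes. Its version and settings, the genome build and the probe positions are not stated in any source consulted here. The number of arrays limits the precision.

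Intensities were taken as log2 and fitted over all 37118 features with limma 3.58.1 in R 4.3.3, labelled mutant minus wild type, with no covariate and no filter. P-values were adjusted by Benjamini-Hochberg over all features with a threshold of 0.05. The fit was tested on simulated data. Features of 1 gene were compared by exact two-sided permutation over arrays. Names came from RefSeq TAIR10.1, which held 31993 of the 32627 loci. In lists the feature of highest mean stands for a gene.

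The members and lists were chosen with earlier results of these data known. The text names all members and, per list, up to 2 genes in each direction past the threshold, taken by lowest p, or the gene of lowest p where none passed, and for each member the 2 loci with the most similar residuals. Other names are marked as chosen after their values were seen. Alternatives were other centring and normalization, filters on dim features, other variance models, a stricter threshold, each array left out, and a replicate block. Averaging arrays 3 numbers apart was also tried. Leaving out wild-type number pairs and a random block for them were chosen after seeing the data. No promoter sequence was used here, so no motif search was made.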

Additional observations from a re-analysis of the deposited data

Results flagged for a closer look

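Of 86 groups examined for a single array far from the rest, 2 had one, and chance gives about 1 in 20. HFR1 was highest on labelled mutant array 1, at 13.61 (log2 intensity), with the nearest of the other labelled mutant arrays at 13.40 and the farthest at 13.35. HEC3 was highest on the same array, at 9.42, with the others between 8.56 and 8.76. The cause was not tested.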

How the results depend on the processing

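PIL1 and both PIF4 features kept their direction in all 28 alternatives run, as did PIF1, HFR1, HY5 and each HYH feature. The second PIF7 feature did so in the 27 that held it. Some alternatives, such as a stricter threshold, robust eBayes and the filters on dim features, leave the fold change as it was. Counts are given as higher and lower, labelled mutant against wild type. Over all features 6989 and 5044 passed. The counts were 3067 and 2613 without the dimmest 50% of features, 3938 and 3236 with arrays 3 numbers apart averaged, and 3302 and 3179 at a threshold of 0.01. Without 1 array in turn they ran from 5124 to 7086 and from 4225 to 5010. For the 16 member features, 2 and 2 passed. The counts were 0 and 0 on averaging and at a threshold of 0.01. They were 1 and 1 with a random block for arrays 3 numbers apart, namely PIL1 and the first PIF4 feature. That block used a single correlation of 0.28 for all features. With the features of a locus averaged the counts were also 1 and 1, and 1 was lower with robust eBayes. Without wild-type arrays 1 and 4 they were 2 and 1, without 2 and 5 they were 5 and 0, and without 3 and 6 they were 1 and 5. Without 1 array in turn, 1 to 3 were higher and 1 to 2 lower. The cause was not tested.

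Changes of sign, in log2 fold change, were met among member features that had not passed. Without 1 array in turn PIF3 ran from -0.0065 to 0.040, the PIF5 features from -0.13 to 0.039 and from -0.14 to 0.012, the first PIF7 feature from -0.38 to 0.091 and PIF8 from -0.024 to 0.17. Without wild-type arrays 1 and 4 the first PIF5 feature was at 0.016. Without 2 and 5 the PIF5 features were at 0.14 and 0.11 and the first PIF7 feature at 0.37. Without 3 and 6 PIF3 was at -0.037 and PIF8 at -0.17. With features averaged per locus BZR1, which had passed, turned to -0.75.

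Same-numbered arrays of the groups gave residual correlations of 0.29, -0.06, 0.10, -0.03 and 0.05 for numbers 1, 2, 3, 5 and 6. So few values cannot show whether the numbers pair the samples. With the number as a replicate block, 5505 features were higher and 4226 lower. That fit left out wild-type array 4, whose number the labelled mutant lacks. Without array 4 and with no block the counts were 6226 and 4620. With the number as a random block over all arrays they were 7780 and 5400. Both block fits gave 2 higher and 3 lower member features, HY5 being added (adjusted p = 0.00952 and 0.0382). HY5 also passed without wild-type array 4 and with no block (adjusted p = 0.0160).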
